A study of Rattus norvegicus with 24 samples.

Results

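The comparison set the frontal cortex of rats that inhaled the highest tungsten concentration against that of unexposed rats. It used 16 of the 24 libraries of the series, chosen by the concentration in their labels: 8 High libraries (80 mg/m3, numbered 65 to 72) and 8 Control libraries (0 mg/m3, numbered 49 to 56). All came from adult male Sprague-Dawley rats, an outbred stock, in an inhalation experiment with a tungsten aerosol, and the labels carry the same treatment wording for the Control libraries. Each library was made from polyadenylated RNA of the frontal cortex with a stranded kit, and the remaining 8 libraries, at an intermediate concentration, entered only an alternative fit. The study's methods describe 24 subjects sampled 24 hours after exposure, 1 library each. The sources used here give no exposure length, litter or sequencing lane. Every library title carries the word Repeat, whose meaning is not given.

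Tungsten is a dense metal used in alloys, tools and munitions. Its soluble oxyanion, tungstate, resembles molybdate and can take its place in the molybdenum cofactor, on which a small family of oxidising enzymes depends. The frontal cortex holds layered excitatory neurons and several classes of inhibitory interneuron, together with astrocytes, oligodendrocytes, microglia and vessels. In its neurons, firing and calcium entry switch on a small set of early genes within minutes: transcription factors of the AP-1, EGR and NR4A families, synaptic effectors such as Arc, and phosphatases that shut the signal off again.

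Expression is given as scaled coverage, the mean read depth over the bases of a gene per 1e+06 of the depth summed over all annotated genes of the library. This quantity is already per base. Coverage on newly assembled loci, 38.8 to 55.1% of all coverage in Control and 39.4 to 42.1% in High, is not part of it. Levels of different genes therefore also depend on how much of their coverage went to such loci. Differences are High minus Control on the scale of log2(scaled coverage + 1), which understates the change of genes with low coverage. A gene was tested if its mean scaled coverage over the 16 libraries was at least 1, and a gene was called at a Benjamini-Hochberg adjusted p under 0.05 in limma. In whole tissue, fewer cells of a type and less RNA per cell cannot be told apart.

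Depth was read from the tables, without read counts. The summed coverage lay between 1.67 and 2.82 in Control and between 1.77 and 2.67 in High, in units of 1e+06 (exact two-sided permutation test, p = 0.170), and the gigabases of sequence implied by the ratio of coverage to FPKM between 5.05 and 7.86 in Control and 4.95 and 7.65 in High (exact permutation test, p = 0.264). Mitochondrial genes took 22.1 to 30.0% of it in Control and 22.5 to 27.8% in High (exact permutation test, p = 0.281). Markers of excitatory neurons, interneurons, astrocytes, oligodendrocytes and microglia were present in every library, with Slc17a7, the vesicular glutamate transporter of cortical neurons, between 302 and 905. The endothelial marker Cldn5 was at or near 0 (at most 0.128), and so were the lung marker Sftpc (at most 0.513), the lung marker Scgb1a1 (0 in all) and the testis marker Prm1 (0 in all). Cldn5 could therefore not serve as a check for vessels.

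Several libraries stood apart before any comparison was made. Control 49 had 15080 genes at a scaled coverage of 1 or more, against 15588 to 16023 in the other Control libraries, and 25959 newly assembled loci that overlapped an annotated gene on the same strand, against 20508 to 22853. Control 56 held 159573 assembled loci, where the other Control libraries had 46334 to 66427. In Control 56 the transfer RNA genes on the minus strand of the mitochondrial genome summed to a scaled coverage of 6991, while the other Control libraries lay between 84.9 and 117 and the High libraries between 94.1 and 155. The exact permutation p of this sum between the groups was 0.995 with all 16 libraries and 0.0107 without Control 56, unadjusted for the 8 library measures. Principal components placed Control 49 and Control 56 at opposite ends of the first component, which took 26.4% of the variance. High 67 had the lowest cortical markers, with Slc17a7 at 302. Values without Control 49, Control 56, High 67 or another library are given beside the results that they moved most.

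**Figure D1:**
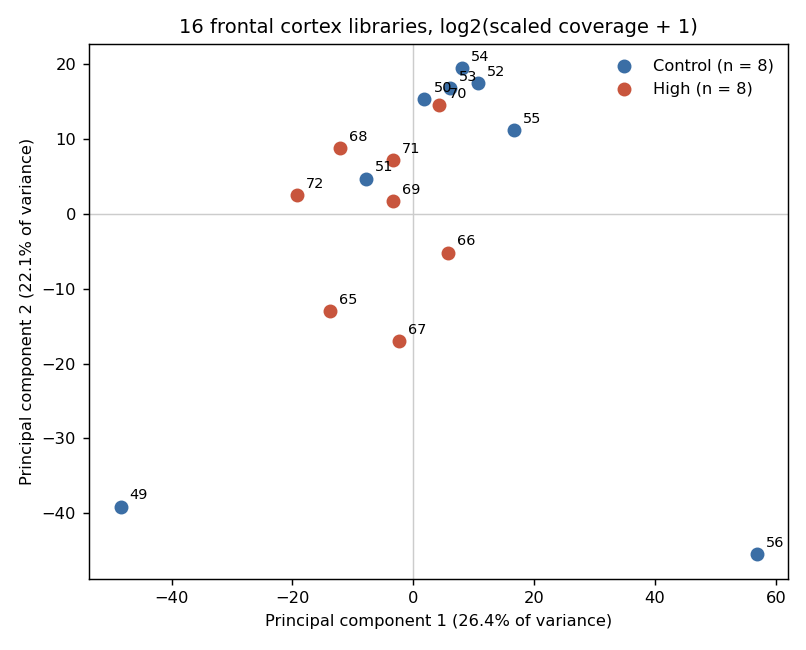
Principal components 1 (26.4% of the variance) and 2 (22.1%) of log2(scaled coverage + 1), with a numbered point for each of the 8 Control and 8 High libraries. Control 49 (−48.4 and −39.1) and Control 56 (56.8 and −45.5) lie away from the other libraries, and the High libraries lie among the remaining Control libraries or below them on component 2.

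No gene passed the test between High and Control. Of 15719 genes tested, 0 were called in limma (0% of the genes tested), the smallest adjusted p was 0.66, and 347 had an unadjusted p under 0.05, 108 of them higher (0.687%) and 239 lower (1.52%) in High. An exact permutation test over the 12870 ways to split the 16 libraries gave 352 genes at an unadjusted p under 0.05, and an exact Wilcoxon rank-sum test gave 892, with 0 after adjustment. The differences were small. The central 98% of genes lay between −0.45 and 0.47, 246 genes differed by 0.5 or more in either direction (136 higher and 110 lower), and 23 by 1 or more. Across all genes the median difference was −0.03, with 5707 genes higher and 10012 lower in High. Without any scaling for depth the median was 0.14, with 526 genes at an unadjusted p under 0.05, 480 of them higher and 46 lower, so directions of gene groups are read against the median of all genes.

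A single gene, 0.00636% of those tested, had High values that did not overlap the Control values. It was AY172581.6, a gene of 66 bases on the plus strand of the mitochondrial genome (positions 4943 to 5008), which starts at the base after Mt-nd2 ends. Its scaled coverage in Control was 8.19 at the lowest, 11.0 at the median and 12.6 at the highest, and in High 12.8, 16.004 and 18.2. Every High library was above every Control library, by 0.47 ± 0.087 (SE) on the log2 scale, with a limma adjusted p of 0.66. The gene was chosen for this lack of overlap, so its values are a description. Mt-nd2 itself, a subunit of respiratory complex I, differed by 0.11 and had a Control median of 13878 and a High median of 14955, far above AY172581.6. The part of reads from that neighbour in the difference was not tested.

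Genes switched on by neuronal activity had some of the largest differences among genes of known function, and nearly all were lower in High. Of 14 tested members of the list of activity-dependent early genes, 12 were lower and 2 higher, with a median of −0.25 against −0.03 for all genes. At an unadjusted p under 0.05 the list had 4 lower members (Npas4, Arc, Nr4a1 and Nr4a2) and 1 higher (Maff). Of all genes tested, 1.52% were lower and 0.687% higher at an unadjusted p under 0.05. In the list, 0 passed the adjusted threshold. All 7 tested AP-1 genes were lower (median −0.12), 2 of them (Fos and Junb) at an unadjusted p under 0.05. All 16 MAPK feedback inhibitors and Ier genes were also lower (median −0.14), with 0 at an unadjusted p under 0.05.

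Npas4, a transcription factor induced almost only by calcium entry in neurons, lay at 8.93 (lowest), 16.1 (median) and 24.3 (highest) in Control and at 2.84, 10.1 and 13.5 in High. The groups overlapped, but the Control median was above every High value. The difference was −0.88 ± 0.30 (SE), with an adjusted p of 0.999 in limma and an exact permutation p of 0.0166. Arc, a synaptic protein that takes AMPA receptors off the membrane, lay at 57.8, 83.3 and 177 in Control and at 21.8, 49.6 and 141 in High. Its High values were below the lowest Control library in 6 of 8 libraries, while High 71 (73.5) and High 72 (141) lay within the Control range. In the tables, whose genome build is not settled, Npas4 lies on the minus strand of chromosome 1 (220261008 to 220265772) and Arc on the minus strand of chromosome 7 (115907097 to 115910541). The difference of Arc was −0.85 ± 0.31 (SE; exact permutation p = 0.0278). Nr4a2, a nuclear receptor that calcium signalling induces, lay at 15.5, 25.3 and 32.2 in Control and at 6.09, 12.3 and 40.0 in High. Here High 65 held the highest value of all 16 libraries, and the difference was −0.74 ± 0.28 (SE; exact permutation p = 0.0342). Nr4a2 was also a member of the list of cortical layer genes, so it counts in both lists.

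Its relative Nr4a1 had a Control median of 31.6 and a High median of 23.8 (difference −0.67; exact permutation p = 0.0280). Fos, the AP-1 subunit that is the usual marker of recently active neurons, lay at 23.2, 37.5 and 53.0 in Control and at 11.0, 27.0 and 41.5 in High. These ranges overlapped over most of their width, and the difference was −0.59 ± 0.25 (SE; exact permutation p = 0.0465). For Junb, its partner, the difference was −0.45 (exact permutation p = 0.0578). Other members pointed the same way with more overlap. Dusp1, a phosphatase that switches MAP kinases off, lay at 29.9, 58.4 and 91.0 in Control and at 15.1, 31.1 and 89.4 in High (difference −0.58; exact permutation p = 0.136), and Egr1 differed by −0.32 (exact permutation p = 0.229). Maff, a small MAF factor, went the other way, with a median of 1.03 in Control and 1.45 in High (difference 0.31; exact permutation p = 0.0482). Both medians were close to the coverage minimum of 1.

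Libraries within each group differed more than the groups did. The list of activity-dependent early genes, given as the median of its members' log2 deviations from their mean over the 16 libraries, ran from −0.23 (Control 49) to 0.57 (Control 53) in Control and from −0.99 (High 67) to 0.51 (High 72) in High. High 67, the library with the lowest cortical markers, thus also had the lowest early-gene level. Without High 67 the list median was −0.14, the highest value with any library left out, and that of the AP-1 list was −0.04, close to the −0.03 of all genes. Without Control 49 the medians were −0.34 and −0.29, and without Control 56 they were −0.28 and −0.13. Whether cortical content had a part in the lower early genes was not tested. Arc differed by −0.68 without High 67 and by −1.06 without High 72, and Fos by −0.44 and −0.70.

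**Figure D2:**
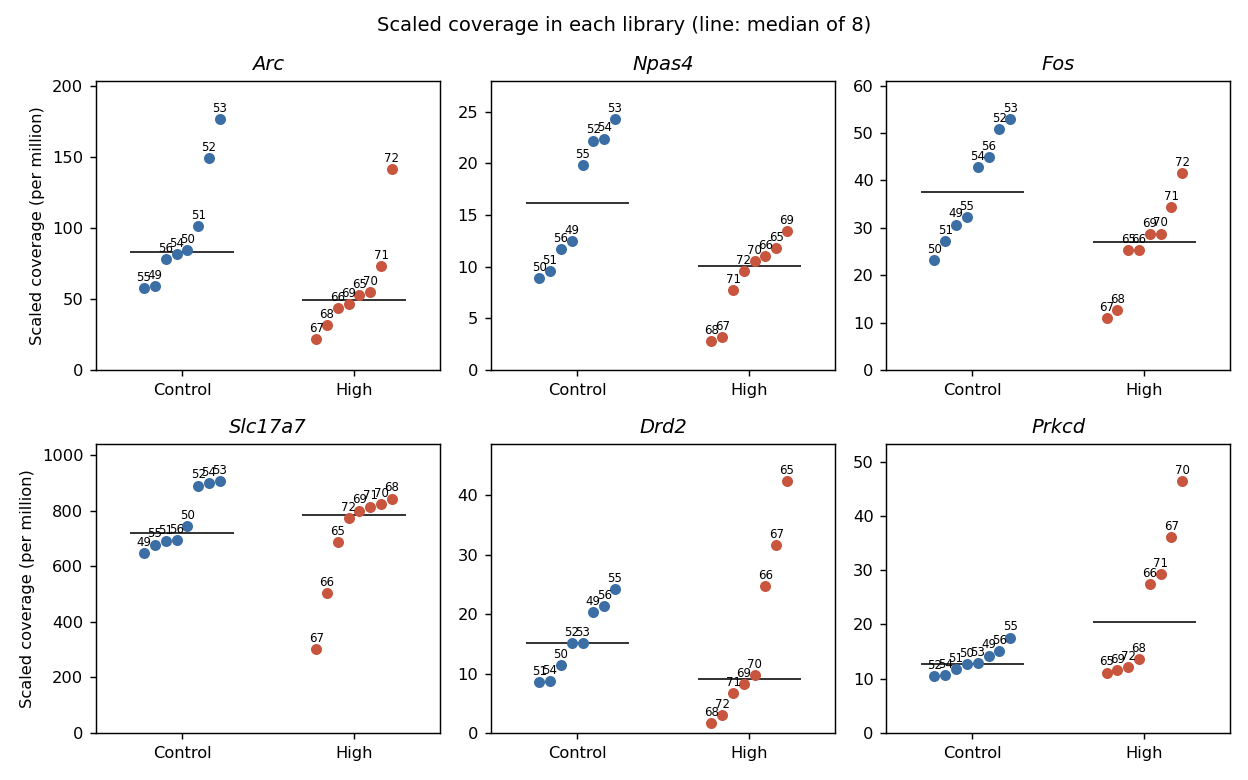
Scaled coverage of Arc, Npas4, Fos, Slc17a7, Drd2 and Prkcd in the 8 Control and 8 High libraries, each a numbered point, with a line at the median of each group. The Arc values of 6 High libraries lie below all Control libraries, while High 72 (141) lies among the highest Control values.

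Some promoters of these early genes held exact matches to known control elements close to the gene start, and most did not. Variant sites and more distant elements were not searched, and no promoter sequence was at hand for Fos and Arc. The cAMP response element, TGACGTCA on either strand, binds CREB, the factor that calcium and cAMP signalling activate. It occurred in the 250 bases before the gene start of 531 of 33469 rat promoters (1.59%; RefSeq sequences, build GRCr8), in 1 of 5 matched AP-1 genes (Jund), 1 of 11 matched activity-dependent genes (Maff) and 3 of 14 matched MAPK and Ier genes (Dusp1, Ier2 and Btg2). The CArG box, the site of serum response factor, occurred in 501 of the promoters (1.497%), in 0 of the 5 AP-1 genes, 2 of the 11 activity-dependent genes (Egr1 and Egr2) and 1 of the 14 MAPK and Ier genes (Dusp5). These 5 windows with the cAMP response element are shown because they carry the element in genes of the lists that were mostly lower in High, each read 5′ to 3′ on the gene's strand with the element in capitals and 15 bases on each side. Their genes did not move alike.
Jund, chr16:18769970-18770007, minus strand, 213 bases before the start: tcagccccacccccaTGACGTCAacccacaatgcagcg
Maff, chr7:112792721-112792758, plus strand, 43 bases before the start: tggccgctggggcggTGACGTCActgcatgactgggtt
Dusp1, chr10:17184714-17184751, plus strand, 116 bases before the start: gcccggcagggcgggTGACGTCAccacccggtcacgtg
Ier2, chr19:40399292-40399329, plus strand, 58 bases before the start: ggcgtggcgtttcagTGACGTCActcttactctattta
Btg2, chr13:48087869-48087906, minus strand, 193 bases before the start: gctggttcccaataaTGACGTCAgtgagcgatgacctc

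Among the genes with this element, the differences were −0.05 for Jund, an AP-1 subunit with a steady level, 0.31 for Maff, −0.58 for Dusp1, −0.44 for Ier2, an immediate early nuclear protein, and −0.53 for Btg2, an antiproliferative early gene. None of these passed the adjusted threshold, and of the 5 Maff alone had an unadjusted limma p under 0.05. A match is a description of the letters and no evidence that the site is used.

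**Figure D3:**
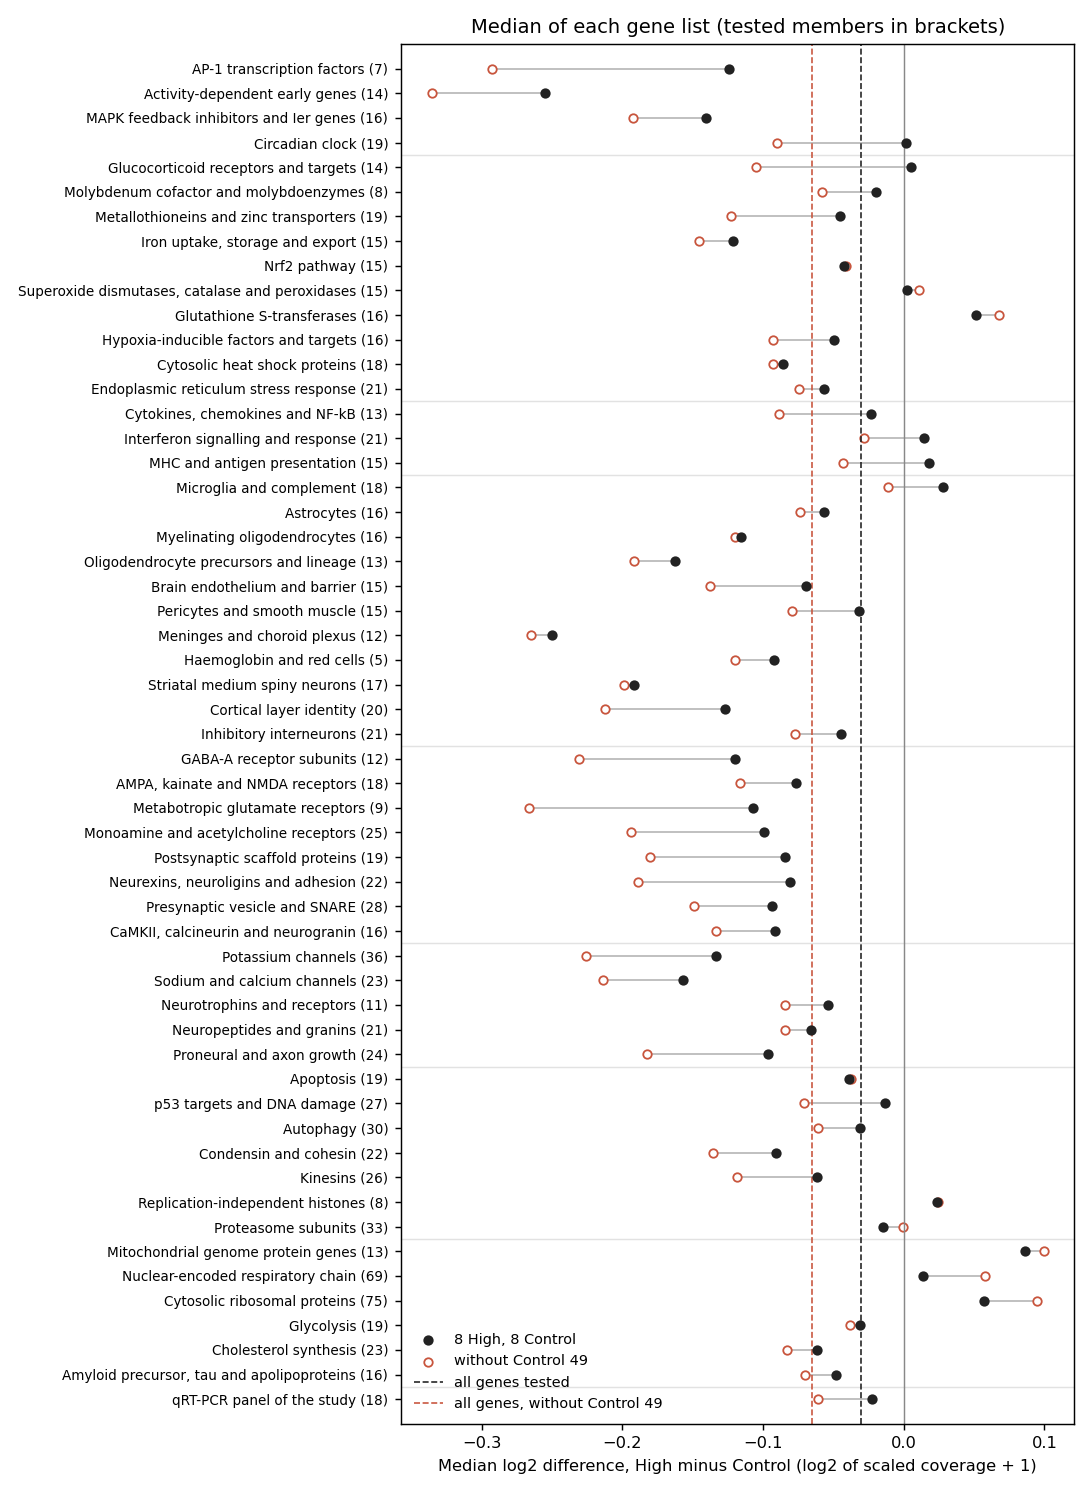
Median log2 difference, High minus Control, of the tested members of 55 gene lists (filled, 8 against 8 libraries; open, without Control 49), with dashed lines for the medians of all genes tested (−0.03 and −0.06). Early, oligodendrocyte, synapse and channel lists lie left of the lines, and mitochondrial genome and ribosomal protein lists lie right of them.

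Across the gene lists the shift was small, and its direction differed between functions. Of 55 gene lists, 39 had a median below that of all genes, and no list had a member that passed the adjusted threshold. Below were 8 of 8 synapse lists, 5 of 5 of channels and signals, 10 of 11 of cell types and 3 of 4 of activity and timing. For stress and metal it was 6 of 10, for cell maintenance 4 of 7, for energy and synthesis 3 of 6 and for immune lists 0 of 3. The count of 39 therefore depends on which lists were written. In 6 lists every tested member was lower in High: the AP-1 and MAPK lists, myelinating oligodendrocytes (16 genes), oligodendrocyte precursors (13), GABA-A receptor subunits (12) and postsynaptic scaffold proteins (19). Against the 10012 of 15719 genes that were lower in all, members of 1 list share libraries and cells and do not count as separate evidence. The side of the all-genes median on which a list lay was the same under all 4 other scalings for 49 lists, and the same with each of the 16 libraries left out in turn for 36.

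Receptors and channels of the synapse were mostly lower in High, by little. All 8 synapse lists and all 5 lists of channels and neuronal signals had medians below that of all genes, from −0.16 for sodium and calcium channels to −0.05 for neurotrophins. All 12 GABA-A receptor subunits, which form the chloride channel of fast inhibition, were lower (median −0.12), as were 16 of 18 AMPA, kainate and NMDA receptor genes (median −0.08) and 31 of 36 potassium channel genes (median −0.13). Monoamine and acetylcholine receptors were lower in 17 of 25 and neurotrophins and their receptors in 6 of 11, closer to the share among all genes. Without High 67 the medians were −0.08 for sodium and calcium channels, −0.08 for potassium channels, −0.03 for CaMKII and calcineurin genes (−0.09 with all libraries) and −0.02 for presynaptic genes (−0.09 with all), and the presynaptic and neurotrophin lists then lay above the median of all genes. Without Control 49 the medians of the GABA-A, potassium channel and postsynaptic scaffold lists were −0.23, −0.23 and −0.18. Grin2a, the NMDA receptor subunit of mature synapses, lay at 3.81, 20.3 and 31.9 in Control and at 3.67, 7.64 and 21.9 in High. Both ranges started at the same level, set in Control by Control 49, and the difference was −0.999 ± 0.35 (SE; exact permutation p = 0.0247). For Grin2b, the subunit that prevails early in life, the values were 29.8, 33.4 and 39.0 in Control and 24.8, 30.0 and 32.4 in High, a difference of −0.19 (exact permutation p = 0.0127).

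Camk4, a nuclear calcium-dependent kinase that acts on CREB, lay at 24.2, 42.2 and 50.8 in Control and at 15.7, 29.9 and 38.1 in High. The Control median was above the highest High value, and the difference was −0.59 ± 0.17 (SE; exact permutation p = 0.00668). Il1rapl1, a synaptic adhesion protein linked to intellectual disability, lay at 1.58, 3.86 and 4.30 in Control and at 1.13, 1.97 and 2.95 in High, a difference of −0.59 (exact permutation p = 0.00295). Slc1a2, the main glutamate transporter of astrocytes, lay at 65.0, 433 and 512 in Control and at 142, 211 and 342 in High. The value of 65.0 was that of Control 49, the other 7 Control libraries lay at 349 to 512, above all High libraries, and the difference over all 16 libraries was −0.74 (exact permutation p = 0.0685). When the coverage of assembled loci overlapping a gene on its strand was added to the gene, Slc1a2 differed by −0.12, Grin2a by −0.52, Camk4 by −0.37 and Il1rapl1 by 0.65. The values of these genes thus depended on whether assembled loci were counted with them.

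Genes of oligodendrocytes were lower as whole lists, by little and with broad overlap. The 16 tested genes of myelinating cells had a median of −0.12 and the 13 of precursors −0.16. Mbp, a main protein of myelin, lay at 1812, 2513 and 2613 in Control and at 1131, 2330.4 and 3027 in High. High thus held both the lowest and the highest library, and the difference was −0.15 (exact permutation p = 0.447). The list ran from −0.76 in High 68 to 0.42 in High 66, and without High 68 its median was −0.02, slightly above that of all genes. Its direction rested on that library.

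Markers of tissue next to the cortex also varied among the High libraries. Drd2, a dopamine receptor of striatal neurons, ran from 8.59 to 24.3 in Control and from 1.61 to 42.3 in High, and Adora2a, an adenosine receptor of the same cells, from 10.3 to 37.5 and from 2.36 to 67.7. Of 17 tested striatal genes 15 were lower (median −0.19), and by library the list ran from −1.38 in High 72 to 1.19 in High 65, a wider span than in Control (−0.55 to 0.85). High 65, High 66 (0.89) and High 67 (1.03) lay above every Control library, and High 68 (−1.35) and High 72 below every one. Without High 68 the median was −0.03. Of 12 tested genes of meninges and choroid plexus 11 were lower (median −0.25), with the lowest library High 72 (−1.21) and the highest Control 56 (0.75), and the median was −0.16 without Control 56. The part of the dissected area in the other differences was not tested.

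Metal handling, oxidative defence and inflammation are functions often studied after inhaled metals. Most of their lists were close to the median of all genes, with iron genes below it and glutathione S-transferases above it. Of 8 tested genes of the molybdenum cofactor and its enzymes, 3 were higher and 5 lower (median −0.02). Mocs2, which builds the cofactor, lay at 46.7, 50.5 and 56.0 in Control and at 47.3, 55.9 and 58.7 in High (difference 0.08; exact permutation p = 0.151), Gphn, which inserts the metal, differed by −0.08, and Suox, sulfite oxidase, by 0.01. Among 19 metallothioneins and zinc transporters 15 were lower (median −0.05). Mt3, the metallothionein of the brain, lay at 881, 945 and 1365 in Control and at 848, 1000.2 and 1207 in High, with the groups overlapping over nearly the whole range, and Mt1 differed by 0.24 (exact permutation p = 0.311).

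Of 15 iron genes 12 were lower (median −0.12), with Slc40a1, ferroportin, the iron exporter, at 2.002, 2.56 and 3.78 in Control and at 0.863, 2.04 and 2.60 in High. The High values lay in the lower part of the Control range or under it (difference −0.35; exact permutation p = 0.0106), but the list median was −0.05 without High 68. Glutathione S-transferases, which detoxify electrophiles, tended the other way, with 11 of 16 higher (median 0.05), while superoxide dismutases, catalase and peroxidases split 8 to 7 (median 0.00). Of 15 Nrf2 pathway genes 10 were lower, and Slc7a11, the cystine transporter, differed by −0.42 (exact permutation p = 0.0538). Interferon genes (median 0.01), antigen presentation (0.02) and microglia (0.03) had medians near 0, and antigen presentation had −0.04 without Control 49 and 0.08 without Control 56. The microglial complement gene C1qa had medians of 60.9 in Control and 61.9 in High. Of 25 cytokine, chemokine and NF-kB genes, 12 were below the coverage minimum, Il6 and Ccl5 among them. Those genes were not tested in the main fit, so nothing can be said of changes there. Of the 13 tested, 10 were lower (median −0.02, and −0.09 without Control 49), 1 of them at an unadjusted p under 0.05.

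The genes of protein synthesis and respiration were the main group on the higher side. All 13 protein genes of the mitochondrial genome were higher in High (median 0.09), although 0 at an unadjusted p under 0.05, and scaling without mitochondrial genes kept their list above the median of all genes. Of 75 tested cytosolic ribosomal protein genes 72 were higher (median 0.06), and of 69 nuclear-encoded respiratory chain genes 42 were higher (median 0.01). At an unadjusted p under 0.05, 3 of the ribosomal genes were higher (Rps29, Rpl9 and Rpl12), against 0.687% of all genes tested. Without Control 49 the ribosomal median was 0.09 and the respiratory chain median 0.06, with 58 of 69 higher. The ribosomal median was 0.03 without High 65, the respiratory chain median −0.02 without Control 51 and that of the mitochondrial genome 0.04 without Control 55. Rpl12, of the large ribosomal subunit, lay at 248, 282 and 354 in Control and at 289, 324 and 395 in High. The ranges overlapped, with a difference of 0.22 (exact permutation p = 0.0216). Ndufa1, a small subunit of complex I, lay at 19.1, 24.4 and 28.7 in Control and at 23.04, 31.3 and 34.8 in High (difference 0.30; exact permutation p = 0.0219). Ribosomal protein genes have many near-identical copies in the genome. Rps29 lay at 1.32, 5.26 and 6.13 in Control and at 4.30, 6.81 and 8.65 in High (difference 0.54). Rpl9 lay at 4.30, 6.77 and 7.22 in Control and at 5.68, 8.11 and 10.7 in High (difference 0.28). Both were low enough that reads placed on other copies make their values uncertain. Both are among the 3 genes counted above, so that count is uncertain as well.

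Other cell type and maintenance lists covered the same range of small differences. Cortical layer genes were lower in 18 of 20 (median −0.13, and −0.06 without High 67), while markers of inhibitory interneurons split 10 higher to 11 lower (median −0.04). Astrocyte genes were lower in 14 of 16 (median −0.06). Of 18 cytosolic heat shock proteins 16 were lower (median −0.09), of 16 hypoxia genes 15 (median −0.05), of 21 genes of the endoplasmic reticulum stress response 16 (median −0.06), and of 23 cholesterol synthesis genes 20 (median −0.06). Condensin and cohesin genes, which fold chromosomes, were lower in 21 of 22 (median −0.09), with Nipbl, the cohesin loader, at −0.19 (exact permutation p = 0.0416). Glucocorticoid receptors and targets (8 of 14 higher, median 0.01) and clock genes (10 of 19 higher, median 0.00) had no common direction, but without Control 49 all 14 glucocorticoid genes were lower (median −0.11), as were 16 of the 19 clock genes (median −0.09). Proteasome subunits (15 of 33 higher), apoptosis genes (5 of 19) and p53 targets (9 of 27) had medians of −0.01, −0.04 and −0.01.

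The remaining genes with large differences had no function in common by their names. On the higher side, Prkcd, a protein kinase C found at high levels in some subcortical nuclei, lay at 10.4, 12.7 and 17.6 in Control and at 11.1, 20.5 and 46.4 in High. High 66, 67, 70 and 71 lay at 27.4 to 46.4, above all other libraries, and the other 4 High libraries at 11.1 to 13.5, so the difference of 0.61 ± 0.27 (SE; exact permutation p = 0.0606) came from 4 libraries. Ctxn3, a small membrane protein of cortex and kidney, lay at 1.96, 4.53 and 6.88 in Control and at 4.85, 6.74 and 9.10 in High (difference 0.51; exact permutation p = 0.00917). Hyls1, a protein of centrioles and cilia, lay at 5.86, 6.62 and 8.98 in Control and at 7.45, 9.24 and 10.6 in High, a difference of 0.36 that was 0.05 with assembled loci added. On the lower side, Zfp871, a zinc finger protein, lay at 0.853, 8.24 and 10.8 in Control and at 1.48, 2.01 and 6.85 in High. The lowest Control value was again Control 49, and the difference was −1.10 ± 0.34 (SE; exact permutation p = 0.0146). Fzd3, a Wnt receptor of axon guidance, differed by −0.91, Bmpr2, a receptor of bone morphogenetic proteins, by −0.74, and Tmem245, a membrane protein, by −0.73 (0.11 with assembled loci added).

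**Figure D4:**
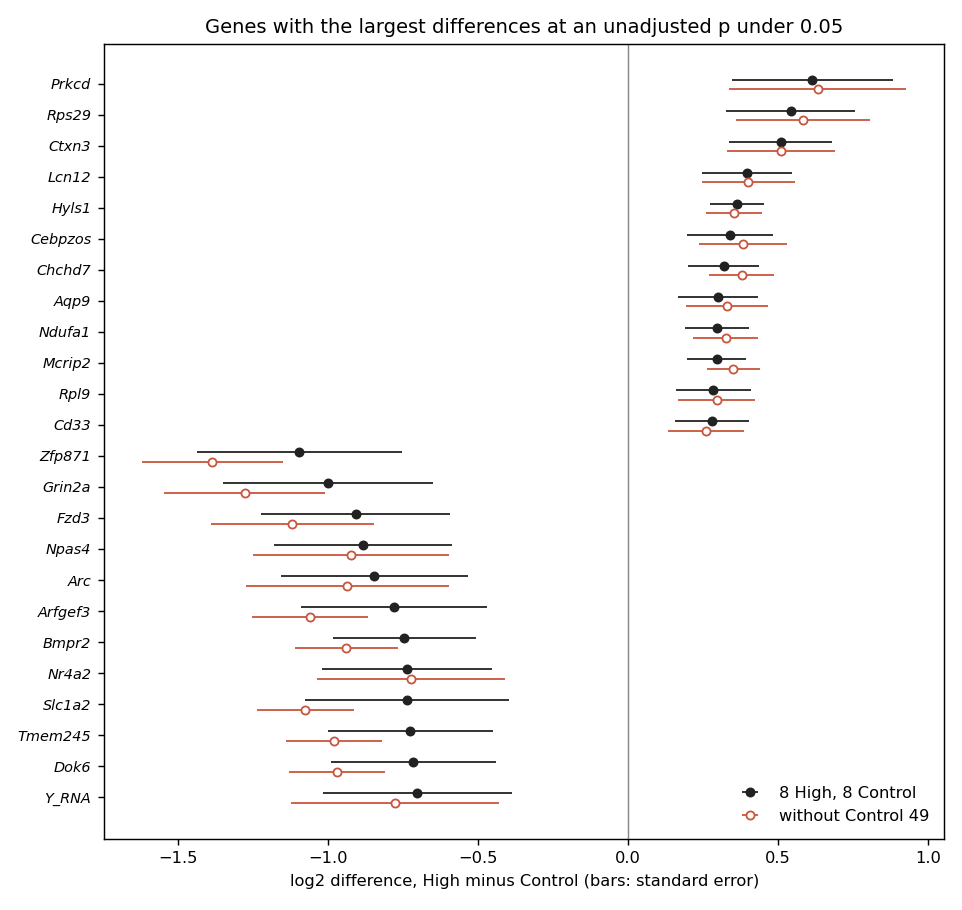
Log2 difference, High minus Control, of the 24 genes that differed most, 12 upward and 12 downward, among genes at an unadjusted p under 0.05 with a mean scaled coverage of at least 5. Zfp871 (−1.10) and Grin2a (−0.999) lie lowest and Prkcd (0.61) highest.

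Leaving out Control 49 changed the count of calls, almost wholly on the lower side. With 7 Control and 8 High libraries, 188 of 15744 genes were called in limma, 2 higher (0.0127%) and 186 lower (1.18%), and 2337 had an unadjusted p under 0.05. Without Control 49 the High values did not overlap the Control values in 2 genes above (0.0127%) and 42 below (0.267%). All 186 lower genes were also lower with all 16 libraries, 70 of them at an unadjusted p under 0.05 and with a median of −0.33, against −0.52 without Control 49. In 166 of the 186, Control 49 had the lowest value of the 16 libraries, and in 151 High 70 had the highest of the High libraries. Without Control 56 instead, 0 genes were called and 365 had an unadjusted p under 0.05. Without both, 103 were called.

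Some of the 186 belonged to the gene lists above. Lower without Control 49 were Slc1a2 (−1.08, adjusted p = 0.0180), Grin2a (−1.28, adjusted p = 0.0350), Kcnq3, a potassium channel that damps firing (−0.90, adjusted p = 0.0211), Il1rapl1 (−0.70, adjusted p = 0.0198), Camk4 (−0.70, adjusted p = 0.0354), and Cacna1e, a calcium channel (−0.82, adjusted p = 0.0263), all in limma. Zfp871, which is in none of the lists, was also among the 186 (−1.38, limma adjusted p = 0.0198). In all, 14 of 1040 tested list members (1.35%, against 1.18% of all genes) were among the 186, a share near the background. The others were Clock and Rora of the circadian clock, Ptprd and Psd3 of the synapse, Cacna1c, Nav1, Sema3a and Mdm4. The early genes were not: Npas4 differed by −0.92 (adjusted p = 0.182) and Arc by −0.94 (adjusted p = 0.197) without Control 49. Of the 2 higher genes 1 was AY172581.6 (0.42, adjusted p = 0.0208) and the other AABR07000398.1, a locus on chromosome 1 (0.48, adjusted p = 0.0476). Over the alternative fits the limma adjusted p ranged from 0.000299 to 1 for Slc1a2, from 0.000421 to 1 for Zfp871 and from 0.00173 to 1 for Grin2a. With assembled loci added and Control 49 left out, 0 genes were called, 172 of the 186 were lower, 126 at an unadjusted p under 0.05, and their median was −0.35. In that fit Kcnq3 (0.37) and Il1rapl1 (0.81) were higher in High.

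The genes called without Control 49 were long. Their median span on the genome was 88.9 kb, against 17.1 kb for all genes tested. Genes under 5 kb had a median difference of 0.01 (0.00 without Control 49), and genes of 200 kb or more had −0.09 (−0.17 without Control 49), with every class between them in order of span. In the longest class 91.9% of genes were lower without Control 49, and 36 (5.63%) were called. Control 49 lay under the other Control libraries in the same order, by −0.03 in the shortest class and −0.65 in the longest. Most synapse, channel and adhesion lists held long genes and the ribosomal list short ones. For those lists, gene span and function cannot be told apart in the directions above. The lists of monoamine and acetylcholine receptors and of neuropeptides and granins were shorter, with median spans of 7.74 and 8.11 kb. Their median differences were −0.10 and −0.07, against −0.02 for genes of 5 to 20 kb. The median span was 6.34 kb for the activity-dependent list (median difference −0.25, against −0.02 for genes of 5 to 20 kb) and 3.09 kb for the AP-1 list (−0.12, against 0.01 for genes under 5 kb). The part of span in any of these differences was not tested.

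**Figure D5:**
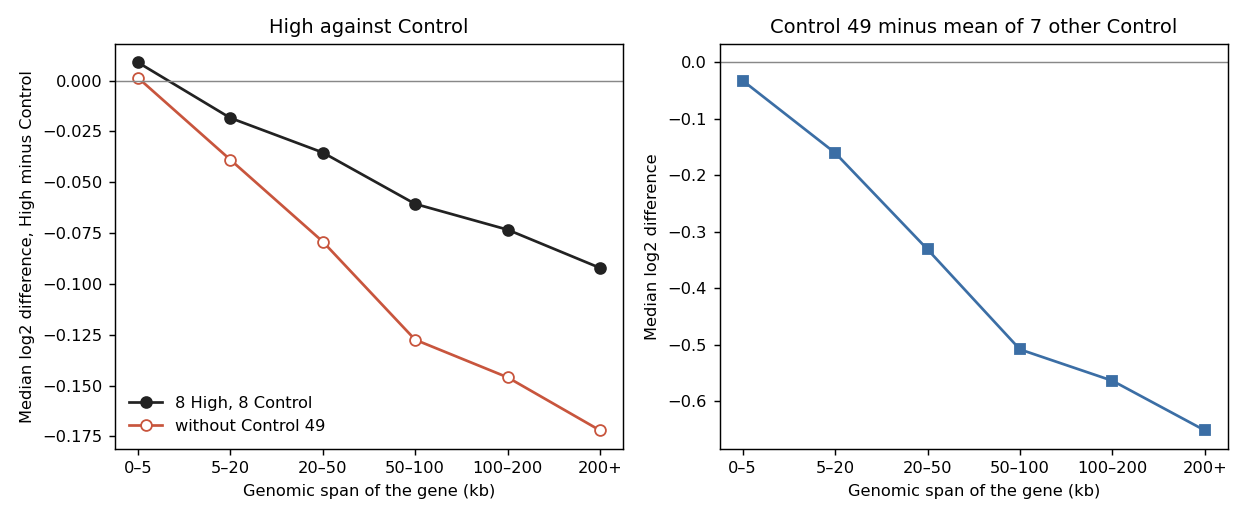
Median log2 difference of genes grouped by their span on the genome (kb), High minus Control with all libraries and without Control 49, and Control 49 minus the other Control libraries. All 3 medians decrease with span, from 0.01, 0.00 and −0.03 under 5 kb to −0.09, −0.17 and −0.65 at 200 kb or more.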

How the data were processed

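Polyadenylated frontal cortex RNA was sequenced in 24 libraries, of which 16 were compared. The authors deposited 1 StringTie gene table per library, with Coverage (a signal: mean read depth per base, not scaled) and FPKM (scaled by StringTie for length and depth). Per the labels, FastQC, Trimmomatic and TopHat2 came before StringTie. None of the sources used here gives their versions. The labels name build mRatBN7.2, but clone names in the tables belong to an earlier rat build, so the build of gene positions is not settled. The extract protocol speaks of cell lines, the tissue label of frontal cortex. Per the file headers the authors also deposited TPM, which in the Control and High tables sums to over 1e+06 because annotated genes come on top of assembled loci, a score rather than a TPM, and it was not used. No read counts were available, so the precision of a value is given by the spread between libraries.

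Coverage of rows with an Ensembl rat gene identifier was summed per gene, divided by the library's sum over these genes and scaled to 1e+06. Testing covered genes whose mean reached 1, on log2(value + 1), with limma 3.58.1 in R 4.3.3 (moderated, trend and robust variance) and Benjamini-Hochberg adjustment over all genes tested. SE is the standard error of the limma fit. Single genes were also tested by an exact two-sided permutation over all 12870 assignments, and these p-values are unadjusted. Library measures were tested the same way, and the smallest p of the 8 measures adjusted to 0.562. The fit was tested on simulated data. Python 3.11.15 was used otherwise.

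Named genes were the 12 most increased and the 12 most decreased at an unadjusted p under 0.05 with a mean of at least 5, genes whose groups did not overlap, and members of the gene lists: the 2 with the highest mean and the 1 with the largest difference in each. Only part of them are printed, and further list members were chosen after their values were seen. The gene lists and the comparison were chosen with earlier results of these data known, and gene lists were written from general knowledge. The list of genes the study measured by qRT-PCR, chosen by the study, had 12 of 18 tested members lower (median −0.02), and 1 of its genes is not reported here. Alternatives covered the pseudocount, the coverage minimum, the scaling, FPKM, sample weights, all 24 libraries, assembled loci, a rank test and each library left out. Leaving out another library beside Control 49 was added after seeing the data.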

Additional observations from a re-analysis of the deposited data

Results flagged for a closer look

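Within each group of 8, the highest or lowest library was set apart where its gap to the next, divided by the range, passed Dixon's 95% limit. Of 174 sets examined 32 passed, and 16 of the 32 were Control 49. Chance would give about 8.7 if the sets were independent. These sets share libraries, and the single genes among them were chosen for their differences, so the 32 cannot be judged against that figure. The causes were not tested.

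Among library measures these were the coverage sum of Control 51 (2.82 in units of 1e+06, the others 1.67 to 2.03), the mitochondrial share of High 70 (22.5%, the others 25.4 to 27.8), the 159573 assembled loci and the minus-strand transfer RNA sum of Control 56 (6991), and the 25959 same-strand loci and 15080 genes at 1 or more of Control 49.

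Among gene list levels, given as the median log2 deviation from the mean of the 16 libraries, Control 49 was lowest of the Control libraries for glucocorticoid targets (−0.62), GABA-A receptors (−0.59), metabotropic glutamate receptors (−0.54), postsynaptic scaffold proteins (−0.77, the others 0.04 to 0.32), neurexins and adhesion (−0.69), potassium channels (−0.53), sodium and calcium channels (−0.63), condensin and cohesin (−0.36) and kinesins (−0.47). Control 51 was lowest for neuropeptides (−0.20) and proteasome subunits (−0.21), and Control 56 highest for meninges and choroid plexus (0.75). In High, High 68 was lowest for the molybdenum cofactor list (−0.19) and High 70 for the protein genes of the mitochondrial genome (−0.22).

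Among single genes, given as scaled coverage, Control 49 was lowest for Slc1a2 (65.0, the other Control libraries 349 to 512), Arfgef3 (2.50), Bmpr2 (8.70), Tmem245 (2.12) and Dok6 (5.55). High 70 was highest of the High libraries for Zfp871 (6.85), Grin2a (21.9), Arfgef3 (15.8), Bmpr2 (25.8) and Tmem245 (10.5). High 72 was highest for Arc (141, the other High libraries 21.8 to 73.5) and High 65 for Nr4a2 (40.0, the others 6.09 to 21.2).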

How the results depend on the processing

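The count of 0 called genes became 1 with median-of-ratios scaling, 1 with FPKM, 179 with sample weights (6 higher and 173 lower, with a weight of 0.13 for Control 49) and 103 without Control 49 and 56. With 1 library left out it ranged from 0 to 188, and was above 0 without Control 49 alone. The 347 genes at an unadjusted p under 0.05 became 661 without a coverage minimum, 195 with a minimum of 5, 526 without scaling (480 of them higher, against 108 of the 347), 2983 with sample weights, 671 with assembled loci added, 2367 without Control 49 and 56 and 892 with the exact Wilcoxon test, and ranged from 277 to 2337 with 1 library left out. The 188 genes called without Control 49 became 0 with all 24 libraries, 0 with assembled loci added, 0 without scaling and 999 with sample weights, and ranged from 0 (also without Control 52, 54 or 55) to 631 (also without Control 51) with another library left out, among them 623 without High 70, 24 without High 72, 47 without Control 50 and 40 without High 65. That count therefore depends on single libraries on both sides. The fit with all 24 libraries also mixes tables made in different ways, as those at the intermediate concentration hold no assembled loci. The median of all genes was −0.03, and 0.14 without scaling. Of 55 gene lists, 39 lay below the median of all genes, and 39 did so without Control 49. The count stayed within 1.5 times in all 27 alternatives. An even split of the lists would also pass that limit, so it cannot show that the direction was stable. With assembled loci added, the genes named in the text that changed sign included Tmem245, which went to 0.11, Il1rapl1 to 0.65, Kcnq3 to 0.27, Psd3 to 0.14 and Jund to 0.05. The causes were not tested. No paired analysis was possible because High and Control share no replicate numbers. Depth limits low genes such as cytokines, for which no counting interval can be given without read counts.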
